A study of Saccharomyces cerevisiae with 15 samples.

Results

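Curcumin and the intrabody scFv-58F were compared directly in the budding yeast Saccharomyces cerevisiae, to describe the pathways in which a chemical inhibitor of histone acetyltransferases (HATs) and an antibody fragment against a single acetylated histone residue differ. The comparison rests on 6 of the 15 samples of the series, namely the 3 titled pL220_CUR and the 3 titled 58F_DMSO, chosen by their titles. The Curcumin cultures carried the empty plasmid pL220 and received 200 µM Curcumin for 1 h, in the same 0.4% DMSO as all other cultures, the scFv-58F cultures carried pL220 with the coding sequence of the HA-tagged intrabody and received 0.4% DMSO, and 3 cultures with empty pL220 and 0.4% DMSO (the DMSO group) served as the common baseline of both. Every culture was grown in SD-L, a synthetic medium without leucine, and was of strain L40, a mating type a strain that carries his, trp1, leu2 and ade2 mutations, a lexAop-HIS3 reporter at LYS2 and a lexAop-lacZ reporter at URA3. The groups therefore differ both in the plasmid and in the treatment, and the intrabody was present throughout growth while the drug acted for 1 h. The intrabody itself is not a feature of the gene tables, so its level was not analysed here, and the 3 cultures per group were described by the study as biological replicates.

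Acetylation of lysine 9 of histone H3 (H3K9ac) is placed mainly by Gcn5, the catalytic subunit of the SAGA and ADA complexes, and marks the promoters of active genes. scFv-58F binds this mark inside the cell, whereas Curcumin, a polyphenol of turmeric, has been used as an inhibitor of p300-type HATs and is also known for actions outside of chromatin. In yeast, fast growth is tied to the expression of ribosomal proteins and of the factors that assemble ribosomes, while stress, metal limitation and foreign chemicals switch on separate regulons, each under its own transcription factors.

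The counts on genes ranged from 9062694 to 12553977 per Curcumin sample and from 11936142 to 15535836 per scFv-58F sample. The Curcumin replicates stood apart from each other. On the log2 CPM scale, where CPM are read counts scaled to a common library total, and over the 6588 tested genes, the Euclidean distances among them were 40.1, 63.5 and 85.9, against 14.1 to 18.9 within scFv-58F, and their distances to the scFv-58F samples were 91.7 to 94.9 for Curcumin replicate 1, 117 to 119 for replicate 2 and 134 to 137 for replicate 3. Values that moved by over 1.5 times when 1 sample was left out are therefore given without it as well. All 7 a-specific genes checked were counted in every sample and TRP1 was at 0 counts throughout. Of the a-specific genes, MFA2 was lower in Curcumin (14.9 to 31.3 CPM, against 95 to 100 CPM in scFv-58F), while MFA1, STE6 and AGA2 were higher. Unlike TRP1, the other marker genes HIS3, LEU2 and ADE2 were counted in both groups. L40 carries the lexAop-HIS3 reporter, and these leu2 cells grew with their plasmid in medium without leucine. The counts do not separate the reporter or a marker on the plasmid from the chromosomal genes. HIS3 and LEU2 values are therefore not read as those of the mutated chromosomal genes. HIS3 had 223 to 401 CPM in Curcumin, against 709 to 764 CPM in scFv-58F. LEU2 had 3317 to 10784 CPM against 10646 to 11224 CPM, and ADE2 48.6 to 76 CPM against 49.3 to 51.7 CPM. The alpha-factor gene MF(ALPHA)1 had 58, 127 and 331 counts in the Curcumin samples and 6, 13 and 14 counts in the scFv-58F samples. The other 3 alpha-specific genes also lay above scFv-58F in every Curcumin sample, with MF(ALPHA)2 at 6.03 to 8.45 CPM in Curcumin against 1.12 to 2.03 CPM in scFv-58F, STE3 at 12.6 to 15 CPM in Curcumin against 9.2 to 9.57 CPM in scFv-58F and SAG1 at 37.2 to 49.2 CPM in Curcumin against 24.7 to 26.9 CPM in scFv-58F, and the part of this in the results was not tested. CPM are shares of the counted RNA, so a change in the RNA content per cell cannot be told apart from a change in the other genes.

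Curcumin and scFv-58F differed at 3694 of 6588 genes (56.1%). A gene was counted here as differentially expressed (DEG) when it changed 1.5-fold or more and the quasi-likelihood test of edgeR gave it an adjusted p (Benjamini-Hochberg) under 0.05. Of the tested genes, 1946 (29.5%) were higher in Curcumin and 1748 (26.5%) were lower. The 3 Curcumin values lay wholly above or below the 3 scFv-58F values for 4738 genes (71.9%). Leaving out 1 sample at a time gave 2857 to 4114 DEGs. When the samples were scaled by the library size alone, 2779 genes were higher and 1123 were lower, with 71.2% of the DEGs higher in Curcumin against 52.7% with TMM, and the median of all genes moved to 0.48 on the log2 scale, against 0.05. Log2 fold changes below are Curcumin over scFv-58F with TMM unless another pair is named, and each gene list is read against these shares and this median.

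Set against the DMSO cultures, the 2 sides of the difference were unequal. Curcumin and DMSO differed at 3467 genes (52.6%), of which 1838 (27.9% of those tested) were higher and 1629 (24.7%) lower in Curcumin. scFv-58F and DMSO differed at 488 genes (7.41%), with 130 (1.97%) higher and 358 (5.43%) lower in scFv-58F. Both comparisons share the 3 DMSO samples, so their values are only set side by side. Of 56 gene lists, 13 had at least 60% of their tested members called in a single direction between Curcumin and scFv-58F, and further lists are described because scFv-58F had moved them as well.

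**Figure D1:**
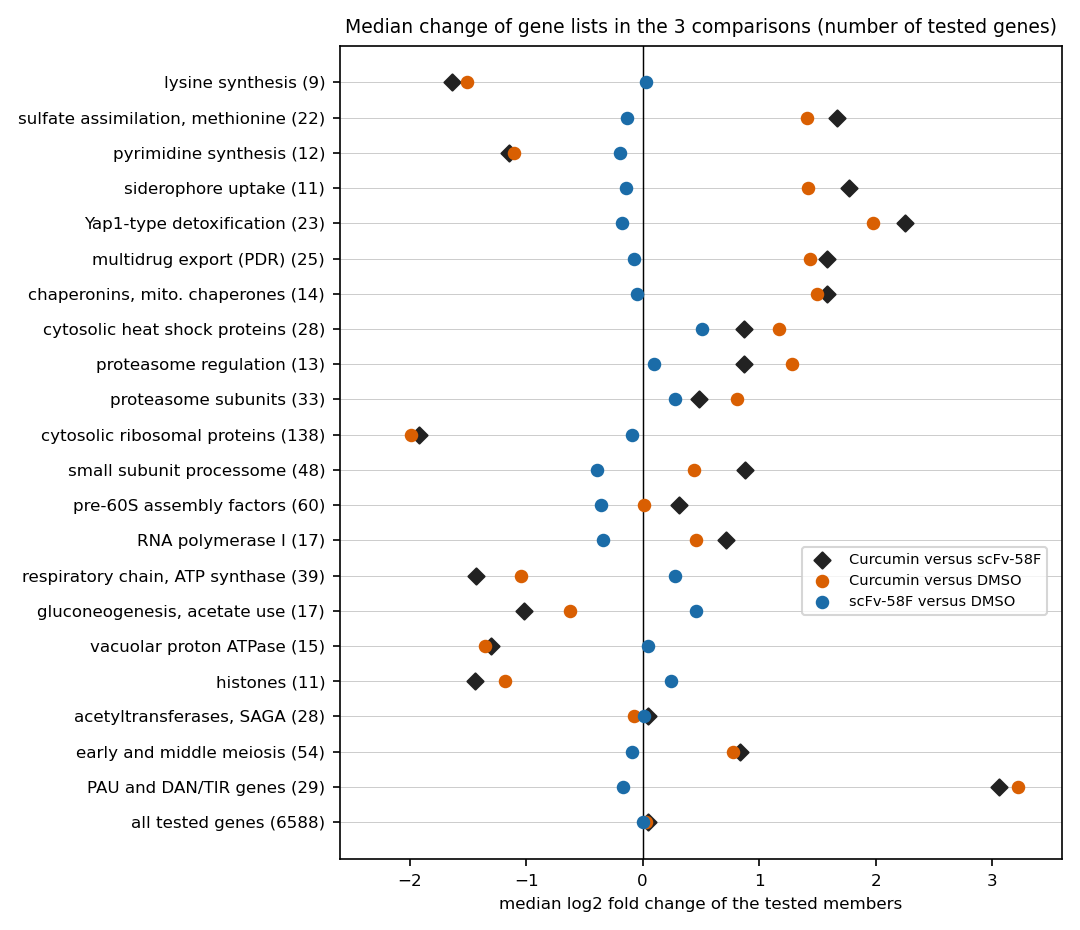
Median log2 fold change of the tested members of 21 gene lists and of all tested genes, in Curcumin versus scFv-58F (black diamonds), Curcumin versus DMSO (orange) and scFv-58F versus DMSO (blue), with the number of tested genes in brackets. The blue points stay between -0.39 and 0.51, while the orange points run from -1.99 for cytosolic ribosomal proteins to 3.22 for the PAU and DAN/TIR genes, which passed the count filter mostly through Curcumin (black median 3.06, and 0.57 for the 12 genes with 10 counts in every sample). The processome (0.44 orange, -0.39 blue) and RNA polymerase I (0.46 and -0.34) lie to the right and left of 0, and the respiratory chain (-1.04 and 0.28) and gluconeogenesis (-0.62 and 0.46) the other way round.

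Genes of the small subunit processome and of RNA polymerase I stood on opposite sides of the DMSO baseline by their medians, whereas the median of pre-60S assembly was below DMSO in scFv-58F and close to it in Curcumin. The small subunit processome is the large nucleolar particle that cleaves and folds the precursor of 18S rRNA. Of its 48 tested genes, 25 were higher in Curcumin than in scFv-58F (52.1%, all tested genes 29.5%) and 4 were lower, with a median of 0.88. The median was 0.44 in Curcumin against DMSO, with 17 genes higher (35.4%, all tested genes 27.9%) and 4 lower. It was -0.39 in scFv-58F against DMSO, with 0 higher and 11 lower (22.9%, all tested genes 5.43%). The 4 lower genes were KRR1 (-1.49), MPP10 (-1.23), UTP23 (-1.22) and ROK1 (-1.14), all of them encoding parts or cofactors of the same particle. The 60 genes of pre-60S assembly, which mature the large subunit, held 22 higher and 1 lower gene between Curcumin and scFv-58F (median 0.31). The share higher, 36.7%, was close to the 29.5% of all tested genes, and the share lower was 1.67%, against 26.5%. In Curcumin against DMSO 19 of the 60 were higher (31.7%, all tested genes 27.9%) and 2 lower, with a median of 0.01. In scFv-58F against DMSO 17 of the 60 were lower (28.3%, all tested genes 5.43%) and 0 higher (median -0.36). RNA polymerase I, which transcribes the rRNA precursor, had 8 of 17 genes higher (47.1%) and 0 lower in Curcumin than in scFv-58F (median 0.72). In Curcumin against DMSO 6 were higher (35.3%) and 1 was lower, with a median of 0.46. In scFv-58F against DMSO 6 were lower (35.3%) and 0 higher (median -0.34). In all 3 lists the share higher in Curcumin than in DMSO was thus not far above the 27.9% of all tested genes.

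Upstream of these genes lie 2 sequence elements that are known from the promoters of ribosome assembly genes, PAC and RRPE. PAC (GCGATGAG, either strand) occurred within 500 bases before the start codon of 24 of the 48 processome genes (50%) and of 36 of the 60 pre-60S genes (60%), against 4.85% of 5977 such windows in the R64 reference genome. RRPE (AAAAATTTT, either strand) occurred in 66.7% and 73.3% of the same lists, against 9.49% of all windows. These windows around the match nearest to the start codon, with the element in capitals, are shown because the genes behind them carry the contrast:
MAK16 RRPE, chrI:101261-101290, minus strand: tttttttttgAAAAATTTTccgatgagctt
RRS1 RRPE, chrXV:868194-868223, plus strand: cctacgcataAAAATTTTTccaagtgatga
UTP15 RRPE, chrXIII:453891-453920, plus strand: ggaataactgAAAAATTTTgaaaactttcg
NOG1 PAC, chrXVI:370824-370853, plus strand: tttttccgcagCTCATCGCaaagaaaaatt
In the NOG1 promoter the PAC element (read here on the opposite strand, 143 bases before the start) is followed by an RRPE whose first base lies 131 bases before the start. A match is a description of letters and does not show that a factor was bound.

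Single genes showed the 2 sides most clearly. MAK16, a constituent of pre-60S particles (YAL025C, chromosome I, 100225 to 101145 in sacCer3), had 102, 95.4 and 43.7 CPM in Curcumin, against 20.1, 17.9 and 19.5 CPM in scFv-58F and 41.7, 40.3 and 33.5 CPM in DMSO. It was 4.12-fold higher in Curcumin than in scFv-58F (log2 fold change 2.04, SE 0.33, edgeR adjusted p = 0.00217), and against DMSO it changed by 1.05 in Curcumin and by -1.02 in scFv-58F on the log2 scale. All 3 groups were separate from each other. URA7, which encodes a CTP synthase and belongs to the genes that the study followed by qPCR, had 135, 126 and 115 CPM in Curcumin, against 30.4, 28.3 and 32.4 CPM in scFv-58F and 65.7, 61.7 and 57.2 CPM in DMSO. Its log2 fold change was 2.02 (SE 0.15, edgeR adjusted p = 0.000341), with 1.01 in Curcumin and -1.02 in scFv-58F against DMSO, and reads in its overlap with YBL039C-A cannot be assigned to either gene because strand was not used in counting. The text of the study lists URA7 and MAK16 as upregulated by scFv-58F, and the qPCR genes SPG1 and SNZ1 as downregulated. The counts here gave the opposite direction against DMSO for each of these genes, and the reason was not tested.

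RRS1, NOG1 and UTP15 were chosen after their values were seen and had the same order of groups. RRS1, needed for the large subunit, had 117, 125 and 57.9 CPM in Curcumin, against 20.8, 22.2 and 22.4 CPM in scFv-58F and 55.4, 54.6 and 47.0 CPM in DMSO. NOG1, a nucleolar GTPase of pre-60S particles, had 238, 242 and 138 CPM in Curcumin, against 37.8, 38.7 and 38.8 CPM in scFv-58F. UTP15, a processome subunit, had 28.9, 30.4 and 23.7 CPM in Curcumin, against 5.96, 7.42 and 7.53 CPM in scFv-58F. Curcumin replicate 3 was the lowest of its group in each of the 3 genes, but still lay above every scFv-58F value. In the cultures expressing scFv-645, an intrabody against a protein that yeast lacks, RRS1 had 34.2, 31.9 and 29.1 CPM, between the scFv-58F and the DMSO values, and UTP15 had 11.8, 13.5 and 11.3 CPM, also between them. URA7 had 49.7, 57.1 and 47.9 CPM in scFv-645, again between the scFv-58F and the DMSO values. MAK16 had 32.7, 36.4 and 32.5 CPM in scFv-645, above every scFv-58F value and overlapping DMSO, with a lower mean than DMSO.

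Among these lists the Curcumin replicates differed. The median of the processome genes relative to the DMSO mean was 0.81, 0.67 and -0.07 on the log2 scale in Curcumin replicates 1 to 3, against -0.38, -0.38 and -0.39 in scFv-58F, and that of RNA polymerase I was 0.78, 0.67 and -0.03, against -0.32, -0.33 and -0.37. The median of pre-60S genes was 0.32, -0.08 and -0.41 in Curcumin, which overlaps the -0.36, -0.38 and -0.35 of scFv-58F, so that 2 of the 3 Curcumin replicates were on the same side of DMSO as scFv-58F. Without Curcumin replicate 3, 35 processome and 30 pre-60S genes were higher in Curcumin than in scFv-58F. In RNA polymerase I the initiation factor genes rose the most. RRN11 rose by 3.61, RRN7 by 2.92 and RRN3 by 2.59 on the log2 scale in Curcumin over scFv-58F, whereas RPC40, a subunit shared with RNA polymerase III, was at -0.87 and did not pass the test.

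**Figure D2:**
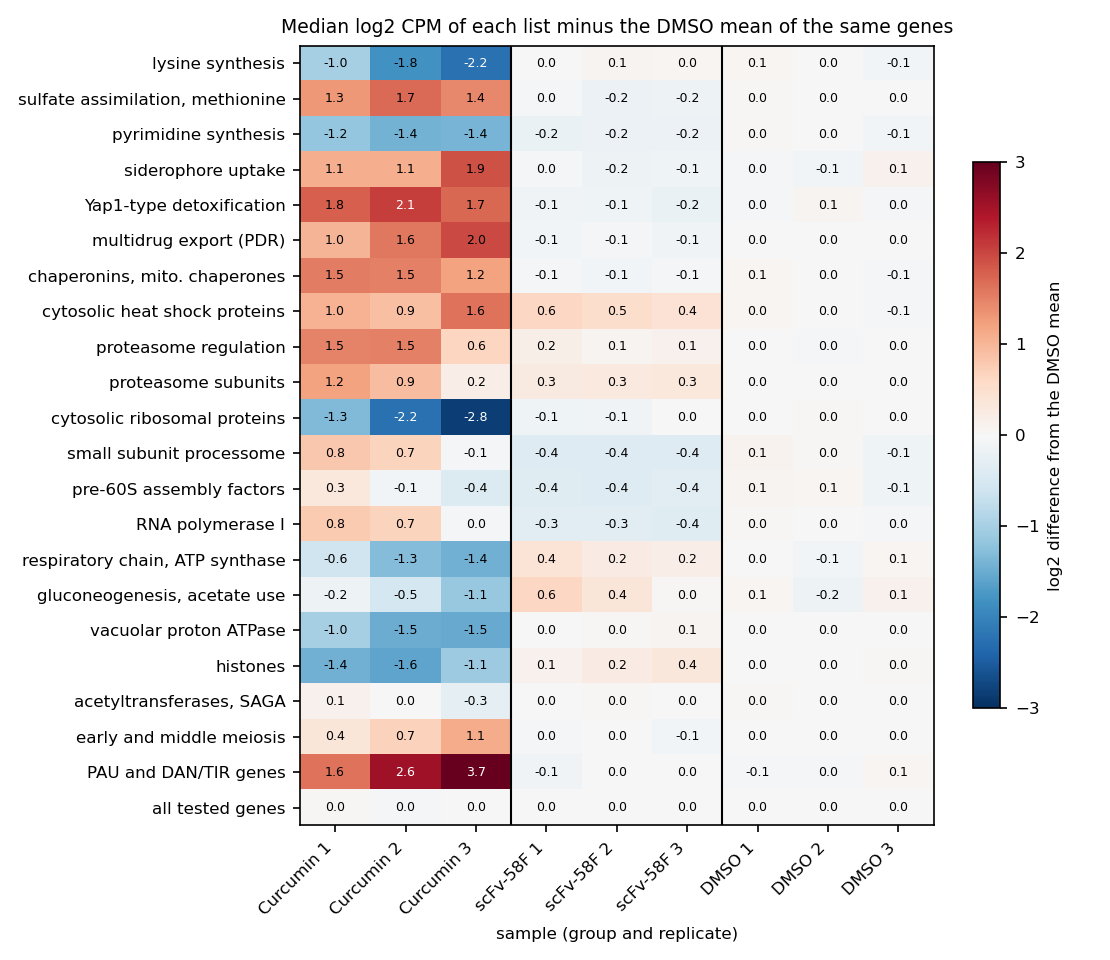
Heat map of the median log2 CPM of each list minus the DMSO mean of the same genes, with a column for each sample of Curcumin, scFv-58F and DMSO. Curcumin replicate 3 departs from replicates 1 and 2 in the processome (-0.07 against 0.81 and 0.67) and in the proteasome (0.21 against 1.20 and 0.93), while cytosolic ribosomal proteins are at -1.32, -2.24 and -2.82 in the 3 Curcumin samples.

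Cytosolic ribosomal proteins moved the other way from the assembly factors. Of 138 tested genes for the proteins of the ribosome itself, 112 were lower in Curcumin than in scFv-58F (81.2%, all tested genes 26.5%). None was higher, and the median was -1.92. The groups did not overlap for 130 of the 138, where 71.9% of all tested genes did not overlap either. Their summed level was 115620, 65427 and 43571 CPM in Curcumin, against 275153, 283128 and 301969 CPM in scFv-58F. RPS31, which encodes a fusion of ubiquitin and a small subunit protein, had 3060, 1326 and 922 CPM in Curcumin, against 14979, 16302 and 18062 CPM in scFv-58F. RPS20 (-3.29, SE 0.43) and RPL29 (-3.21, SE 0.35) fell about as far as RPS31 (-3.25, SE 0.53, and -3.88 without Curcumin replicate 1). In scFv-58F against DMSO the same genes had a median of -0.09, with 1 higher and 3 lower, so that nearly the whole difference lay between Curcumin and the baseline (median -1.99, 119 lower). The consensus of Rap1, the factor known for these promoters, occurred in 21% of the 138 windows and in 2.23% of all windows. Many of these genes exist as near-identical pairs whose reads the counting shared between copies, and leaving out Curcumin replicate 2 gave 82 lower genes while leaving out replicate 1 gave 127.

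Gene length moved with these results. The median log2 fold change of all tested genes was -0.42 for the 428 genes of up to 300 bases, -0.31 for those of 301 to 500 bases and -0.48 for those of 501 to 1000 bases, but 0.44 for 1501 to 2500 bases and 0.73 above that. The gradient was seen in each Curcumin replicate, and in scFv-58F against DMSO the same medians stayed between -0.07 and 0.08. Ribosomal protein genes have a median length of 433 bases, respiratory chain genes of 462 bases and histone genes of 399 bases, against 1095 bases for all tested genes. After a correction for gene length, added after the data were seen, the ribosomal proteins had a median of -1.50 with 96 genes lower, the respiratory chain -1.02 with 25 lower, the histones -0.97 with 8 lower and the vacuolar proton ATPase -1.32 with 12 lower. The 68 mitochondrial ribosomal proteins, with a median of -0.38 and 21 lower and 9 higher genes before, were at 0.04 with 9 lower genes after the correction. Lists higher in Curcumin changed as well. After the correction the processome was at 0.59 with 21 genes higher and RNA polymerase I at 0.56 with 7 higher. Multidrug export was at 1.21 with 15 higher, and pre-60S assembly at 0.40 with 19 higher. PDR5 was at 3.56, SNQ2 at 3.48 and MET5 at 2.64, while OYE3 was at 6.64 and AAD6 at 7.58.

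**Figure D3:**
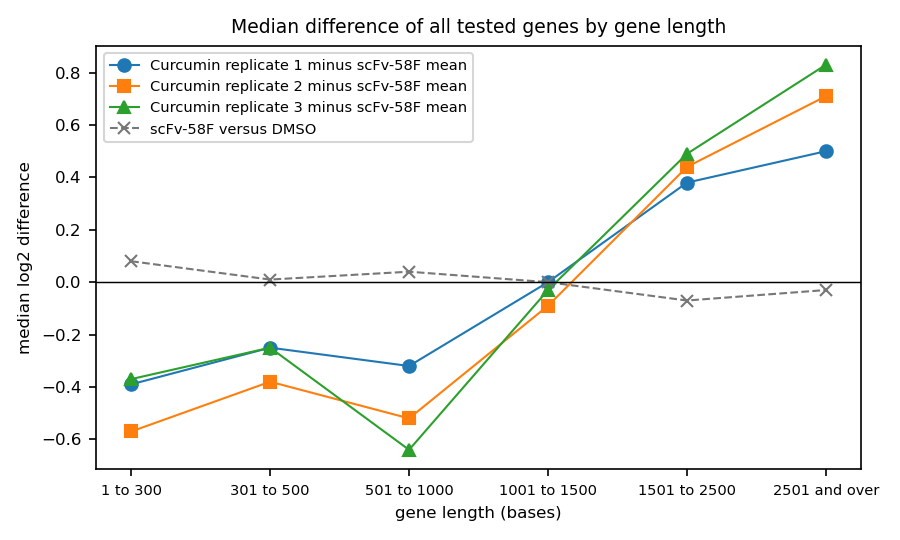
Median log2 difference of all tested genes by gene length in bases, for each Curcumin replicate minus the mean of scFv-58F (solid lines) and for scFv-58F versus DMSO (dashed line). Each Curcumin line climbs, from -0.39, -0.57 and -0.37 in the shortest genes to 0.50, 0.71 and 0.83 in the longest, whereas the dashed line stays between -0.07 and 0.08.

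**Figure D4:**
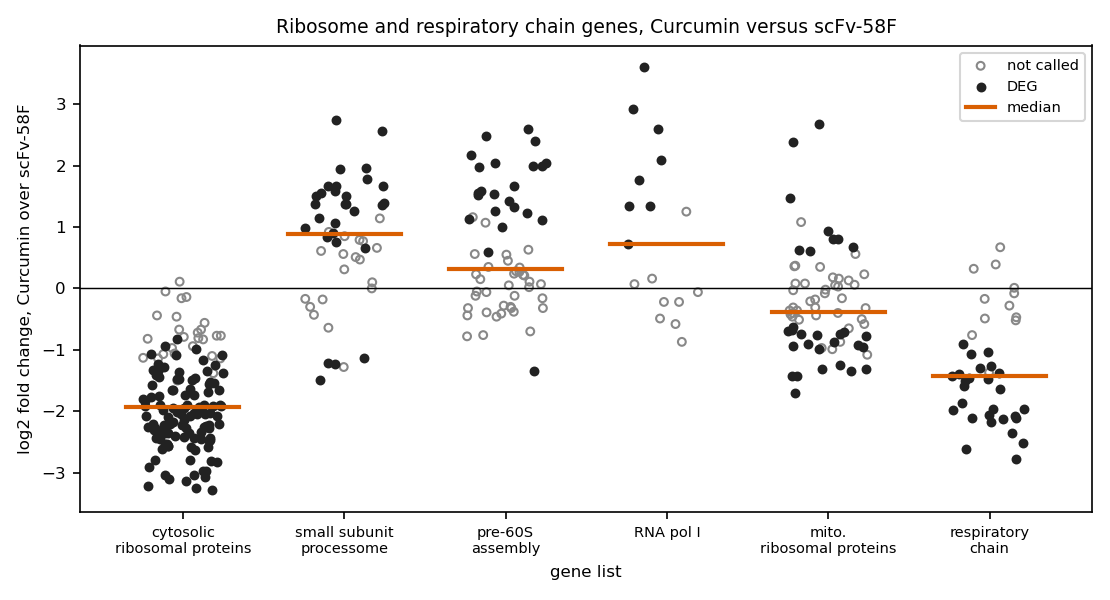
Log2 fold change of Curcumin over scFv-58F for each tested gene of 6 lists, with DEGs filled, other genes open and the list median as a bar. Cytosolic ribosomal proteins lie almost wholly below 0 (median -1.92), the processome and RNA polymerase I mostly above it (medians 0.88 and 0.72), and the mitochondrial ribosomal proteins on both sides (median -0.38).

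In the respiratory chain scFv-58F lay above DMSO and Curcumin below it. The nuclear-encoded subunits of the chain and of ATP synthase, which make ATP from respiration, were lower in Curcumin for 27 of 39 genes and higher for 0, with a median of -1.43. Against DMSO the medians were -1.04 in Curcumin (23 lower, 0 higher) and 0.28 in scFv-58F (4 higher, 1 lower). COX7, a small subunit of cytochrome c oxidase, had 37.5, 24.3 and 61.9 CPM in Curcumin, against 262, 232 and 254 CPM in scFv-58F and 144, 136 and 161 CPM in DMSO. It was among the genes called on both sides, with -1.84 in Curcumin and 0.76 in scFv-58F against DMSO, as was COX12 (-1.83 and 0.67). In the scFv-645 cultures COX7 had 194, 179 and 143 CPM and COX12 had 321, 301 and 246 CPM. In both genes these values overlapped DMSO, with a higher mean, and lay below every scFv-58F value. ATP17, a subunit of the membrane part of ATP synthase, fell by 2.78 (SE 0.26) in Curcumin over scFv-58F, but was not a DEG of scFv-58F against DMSO (0.34). HAP4, the activator of respiratory genes, went against the list, at 0.67 and not called.

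Genes for growth on acetate and other carbon sources that need gluconeogenesis followed a like pattern. Of 17 tested, 9 were lower and 1 higher in Curcumin than in scFv-58F (median -1.02), against medians of -0.62 in Curcumin and 0.46 in scFv-58F over DMSO. Against DMSO, 6 genes were lower and 1 higher in Curcumin (35.3% lower, all tested genes 24.7%). In scFv-58F 4 were higher and 0 lower (23.5% higher, all tested genes 1.97%). By sample, the list's median over the DMSO mean was -0.15, -0.52 and -1.13 in Curcumin, against 0.62, 0.36 and 0.03 in scFv-58F and -0.15 to 0.14 in DMSO. Thus scFv-58F replicate 3 lay within DMSO, and Curcumin replicate 1 was level with the lowest DMSO sample. ADY2, an acetate transporter, had 39.8, 38.9 and 38.3 CPM in Curcumin, against 226, 144 and 99.7 CPM in scFv-58F and 54.8, 48.2 and 58.5 CPM in DMSO. SFC1, a mitochondrial succinate-fumarate carrier, had 26.7, 14.6 and 33.5 CPM in Curcumin, against 223, 95.2 and 65.3 CPM in scFv-58F. Both were chosen after their values were seen, and in both the scFv-58F replicates were themselves spread, with replicate 1 highest and, for SFC1, replicate 3 within the 44.2 to 70.9 CPM of DMSO. The log2 fold change of SFC1 was -2.38, and -1.72 without scFv-58F replicate 1. ACS1, an acetyl-CoA synthetase, was the 1 higher gene (1.07) and was also higher in scFv-58F than in DMSO (0.82).

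The starvation genes gave no single direction. Of 16 tested, 4 were higher and 5 lower in Curcumin than in scFv-58F (median -0.23), and each treatment had 6 higher and 1 lower against DMSO. These 6 are 37.5% of the list, against 27.9% of all tested genes higher in Curcumin and 1.97% higher in scFv-58F. The list's median turned to 0.19 when the samples were scaled by library size alone and to 0.01 after the length correction. EGO4, known to be induced in stationary phase, had 111, 54.8 and 90.8 CPM in Curcumin, against 821, 863 and 953 CPM in scFv-58F and 369, 408 and 455 CPM in DMSO. RIM15, a kinase required for entry into quiescence, was the opposite, with 101, 195 and 442 CPM in Curcumin, against 37.0, 30.9 and 33.7 CPM in scFv-58F (log2 fold change 2.84, and 2.11 without Curcumin replicate 3). SPG1, needed for survival in stationary phase and followed by the study's qPCR, had 32.0, 34.5 and 36.7 CPM in Curcumin, against 60.6, 49.5 and 51.7 CPM in scFv-58F and 24.0, 25.3 and 30.9 CPM in DMSO (log2 fold change -0.67, SE 0.15, edgeR adjusted p = 0.00782). Its call was lost with library-size scaling (-0.25, edgeR adjusted p = 0.22), after the length correction (-0.26) and, since the change was then under 1.5-fold, without scFv-58F replicate 1 (-0.58). SNZ1, of vitamin B6 synthesis, had 101, 82.8 and 105 CPM in Curcumin, against 201, 218 and 209 CPM in scFv-58F and 121, 126 and 112 CPM in DMSO. It was lower in Curcumin than in scFv-58F by 1.15 on the log2 scale (SE 0.17, edgeR adjusted p = 0.00153). Against DMSO it was at -0.33 in Curcumin, not called, and at 0.80 in scFv-58F, called higher.

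In the other lists with at least 60% of members called, the scFv-58F medians against DMSO stayed between -0.19 and 0.24, and the difference lay mainly on the side of Curcumin. Amino acid synthesis did not move as a whole. Lysine synthesis was lower for 8 of 9 genes (median -1.64), sulfate assimilation and methionine synthesis was higher for 20 of 22 and lower for 0 (median 1.67), and the synthesis of arginine, histidine, branched-chain and aromatic amino acids had medians between -0.42 and -0.04. With library-size scaling the medians were 0.28 for histidine, 0.22 for aromatic and 0.00 for branched-chain synthesis. The 10 branched-chain genes were split, from -1.38 to 3.63, with 4 higher (40%, all tested genes 29.5%) and 3 lower (30%, all tested genes 26.5%). After the length correction 2 were higher.

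LYS9, which encodes the saccharopine dehydrogenase of the penultimate step of lysine synthesis (YNR050C, chromosome XIV, 714048 to 715388), showed the largest decrease of all genes that met the naming rule. It had 61.9, 36.3 and 81.1 CPM in Curcumin, against 1283, 1353 and 1354 CPM in scFv-58F and 1430, 1407 and 1322 CPM in DMSO (log2 fold change -4.50, SE 0.36, edgeR adjusted p = 0.000364). LYS12, the homoisocitrate dehydrogenase gene, had 163, 51.8 and 57.3 CPM in Curcumin, against 1373, 1468 and 1492 CPM in scFv-58F. LYS14, the gene of the pathway's own activator, had 79.7, 50.3 and 59.4 CPM in Curcumin, against 336, 383 and 378 CPM in scFv-58F. The groups were separate in all 3 genes, and LYS12 was at -4.03, or -4.73 without Curcumin replicate 1. The exception in the list was LYS2, the locus at which L40 carries its reporter, with 1083, 730 and 423 CPM in Curcumin, against 1077, 1187 and 1142 CPM in scFv-58F (log2 fold change -0.64, edgeR adjusted p = 0.154). Without Curcumin replicate 2 the list had 5 lower genes.

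The element known for Lys14, TCCNNNGGA, was found in 5 of the 9 upstream windows (55.6%), against 5.92% of all windows. The matches of 3 genes whose transcripts fell furthest are given, on the minus strand and with the element in capitals:
LYS9, chrXIV:715532-715561: attgagaattTCCAATGGAattatcagcaa
LYS12, chrIX:187795-187824: ttcactttttTCCCGTGGAaaaatattctt
LYS14, chrIV:512306-512335: tggaaaaattTCCTCAGGAatttcaaaatc
LYS1 and LYS21 held the other matches, with log2 fold changes of -1.75 for LYS1 and -1.59 for LYS21.

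The sulfur genes were the mirror of the lysine genes. MET5, the large subunit of sulfite reductase, had 218, 387 and 306 CPM in Curcumin, against 28.9, 28.3 and 26.0 CPM in scFv-58F and 27.9, 25.6 and 24.2 CPM in DMSO, which is 10.8-fold higher in Curcumin than in scFv-58F (log2 fold change 3.43, SE 0.27, edgeR adjusted p = 0.000348). CYS3, which makes cysteine from cystathionine, had 680, 1042 and 612 CPM in Curcumin, against 90.7, 78.3 and 78.2 CPM in scFv-58F. MUP1, the high-affinity methionine permease, had 263, 472 and 177 CPM in Curcumin, against 43.5, 35.5 and 37.9 CPM in scFv-58F. Uptake, reduction and the regulators MET4, MET28 and MET32 were all among the higher genes, at 1.77, 1.92 and 1.08. The genes that were not called were MET17 (1.23) and SAM2 (0.43). The site of Cbf1, CACGTGA, was found upstream of 17 of the 22 genes (77.3%; all windows 4.57%), and that of Met31 and Met32, AACTGTGG, upstream of 11 (50%; all windows 1.64%). They are shown for the 3 genes with the largest change, with MET5 on the minus strand and the others on the plus strand:
MET5 Cbf1, chrX:683572-683601: aatgaatttcaTCACGTGcgtattatctct
CYS3 Cbf1, chrI:130572-130601: aattagccattCACGTGAtctcagccagtt
MUP1 Met31 and Met32, chrVII:599127-599156: ctaataaactgCCACAGTTgactcaagcgg

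Pyrimidine synthesis was lower for 9 of 12 genes and higher for 2 in Curcumin than in scFv-58F (median -1.15). URA1, the dihydroorotate dehydrogenase gene, had 159, 92.6 and 85.2 CPM in Curcumin, against 1040, 1091 and 1101 CPM in scFv-58F. URA4 fell by 2.82 (SE 0.20) and YNK1, a nucleoside diphosphate kinase gene, fell by 2.33 (SE 0.27) on the log2 scale. The 2 higher genes were URA7, described above, and FUR4 (2.54), the uracil permease.

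Iron uptake was higher in Curcumin. The siderophore transporters, the reductases and the FIT mannoproteins, which are targets of the iron-responsive factor Aft1, were higher in Curcumin for 10 of 11 genes and lower for 0 (median 1.77). LSO1, a small gene induced by iron shortage (YJR005C-A, chromosome X, 448477 to 448758), had 80.8, 82.5 and 43.0 CPM in Curcumin, against 0.263, 0.280 and 0.558 CPM in scFv-58F, which rest on 3, 4 and 6 counts. Its log2 fold change was 7.52 (SE 0.43), but LSO1 reached 10 counts only in the Curcumin samples and so passed the count filter through them alone. FIT1 had 6.51, 11.3 and 26.8 CPM in Curcumin, against 1.84, 1.54 and 2.32 CPM in scFv-58F, and FIT3 rose 5.63-fold. Without Curcumin replicate 3 the log2 fold changes were 2.21 for FIT1 (2.95 with it) and 1.81 for FIT3 (2.49 with it). FIT2, of the same kind, was at 0.33 and was not called. In the reductive uptake system and the iron-sparing genes 9 of 18 were higher and 1 was lower (median 0.82), while copper genes were higher for 2 and lower for 5 of 10. The 5 lower copper genes became 2 without Curcumin replicate 2 or any 1 scFv-58F replicate, with the replicate block or with the length correction, and 1 with library-size scaling.

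The core of the Aft1 site, GCACCC, was present in all 11 siderophore windows (100%), against 7.63% of all windows. The nearest match of 3 genes is given on the minus strand, and those of FIT1 and FIT3 are read on the opposite strand:
LSO1, chrX:448885-448914: atcgagaatgttGCACCCttttttccaatc
FIT1, chrIV:1505065-1505094: agttctaggaaaGGGTGCaaaaaaatgaat
FIT3, chrXV:1061222-1061251: cattctaggaaaGGGTGCaaaaaaatgggg

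Detoxification held some of the largest differences. Among the old yellow enzymes, aldo-keto reductases and other genes known from the Yap1 response to electrophiles and oxidants, 18 of 23 were higher and 2 lower in Curcumin than in scFv-58F (median 2.25). OYE3, an NADPH oxidoreductase, had 1045, 1678 and 1418 CPM in Curcumin, against 14.3, 14 and 14 CPM in scFv-58F and 15.4, 21.6 and 16.9 CPM in DMSO (log2 fold change 6.59, SE 0.31, edgeR adjusted p = 0.000341). AAD6, an aryl-alcohol dehydrogenase gene, had 604, 899 and 566 CPM in Curcumin, against 5.78, 5.04 and 4.37 CPM in scFv-58F, and its neighbour YFL057C rose 105-fold. Both belong to a family of near-identical copies, and RefSeq holds the 2 as a single pseudogene, AAD6. GRE2, a methylglyoxal reductase gene that overlaps YOL150C, rose 31.4-fold. The general thioredoxin, glutathione and peroxide genes had 6 of 29 higher and 7 lower (median -0.05), but 11 lower and a median of -0.44 without Curcumin replicate 1, and 4 lower without Curcumin replicate 2 or any 1 scFv-58F replicate, with library-size scaling or with the length correction.

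Multidrug export, run by the ABC and major facilitator transporters under Pdr1 and Pdr3, was higher for 18 of 25 genes and lower for 1 (median 1.58). PDR5, the main drug efflux pump (YOR153W, chromosome XV, 619840 to 624375), had 1198, 1973 and 2910 CPM in Curcumin, against 94.7, 97.3 and 91.6 CPM in scFv-58F and 96.0, 90.1 and 91.3 CPM in DMSO (log2 fold change 4.40, SE 0.40, edgeR adjusted p = 0.000439). SNQ2, another ABC pump, had 293, 599 and 3302 CPM in Curcumin, against 65.5, 66.2 and 63.0 CPM in scFv-58F. AQR1, a major facilitator exporter, had 78.2, 169 and 380 CPM in Curcumin, against 7.62, 10.3 and 11.2 CPM in scFv-58F. In all 3 genes Curcumin replicate 3 was the highest, and without it the log2 fold changes were 4.05 for PDR5, 2.77 for SNQ2 (4.40 with it) and 3.65 for AQR1 (4.41 with it). QDR1 was the 1 lower gene (-1.21), and PDR3, the gene of the factor itself, was at 0.27 and not called. The site TCCGNGGA lay upstream of 10 of the 25 genes (40%), against 2.91% of all windows. It is shown for PDR5 and for YOR1, a further ABC pump (2.48, SE 0.20), both on the plus strand:
PDR5, chrXV:619516-619545: agagaaatgtcTCCGCGGAactcttctacg
YOR1, chrVII:1052412-1052441: taacgcgtggtTCCGTGGAaatagccggaa

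**Figure D5:**
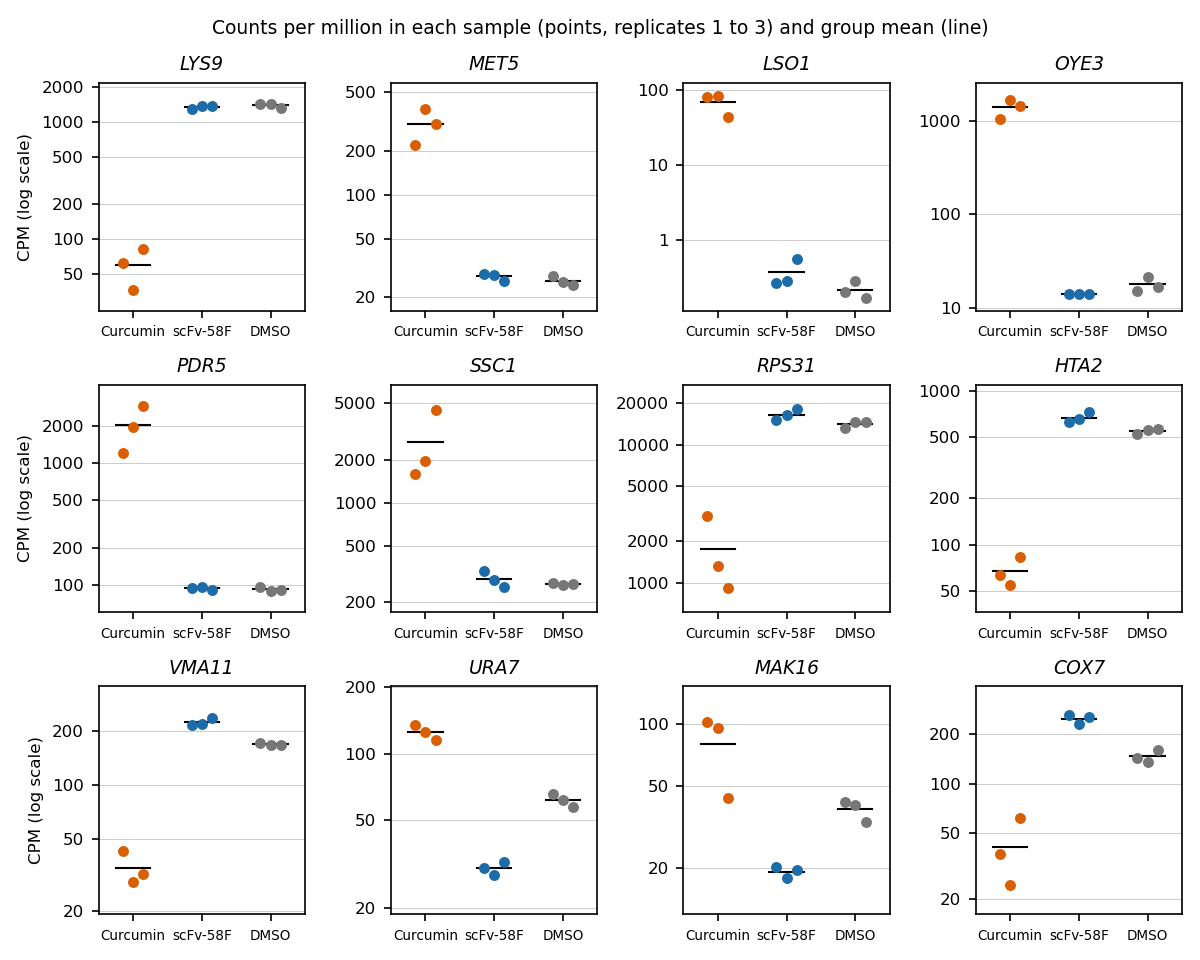
CPM on a log axis of 12 genes in the 3 Curcumin, 3 scFv-58F and 3 DMSO samples (points in replicate order, line at the group mean). In LYS9, RPS31, HTA2 and VMA11 the Curcumin points lie below the other groups, in MET5, LSO1, OYE3, PDR5 and SSC1 above them, and in URA7, MAK16 and COX7 the DMSO points lie between Curcumin and scFv-58F.

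The cytosolic heat shock proteins were higher than DMSO in both treatments, with 17 of 28 higher in Curcumin (60.7%, median 1.17) and 11 of 28 in scFv-58F (39.3%, median 0.51). Of all tested genes, 27.9% were higher in Curcumin and 1.97% in scFv-58F. Curcumin was above scFv-58F for 15 and below it for 2 (median 0.87). HSP82, the inducible Hsp90, had 2201, 2561 and 3168 CPM in Curcumin, against 431, 433 and 366 CPM in scFv-58F and 186, 187 and 166 CPM in DMSO. BTN2, a protein-sorting factor of aggregates, had 708, 1002 and 952 CPM in Curcumin, against 255, 261 and 209 CPM in scFv-58F and 46.3, 62.7 and 45.8 CPM in DMSO. Both were chosen after their values were seen. In the scFv-645 cultures HSP82 had 409, 554 and 613 CPM and BTN2 had 329, 511 and 499 CPM, so that the control intrabody overlapped scFv-58F in HSP82 and lay above it in BTN2. The cytosolic chaperonin and the mitochondrial chaperones were higher in Curcumin than in scFv-58F for 11 of 14 and lower for 0 (median 1.58), while scFv-58F against DMSO had a median of -0.05 with 1 higher. SSC1, the mitochondrial Hsp70, had 1584, 1969 and 4523 CPM in Curcumin, against 333, 285 and 254 CPM in scFv-58F. MDJ1, its J-protein partner, rose by 3.19 (SE 0.47), and the chaperonin subunit gene CCT7 by 2.61 (SE 0.20). Without Curcumin replicate 3, SSC1 was at 2.59 (3.19 with it) and MDJ1 at 2.59 (3.19 with it).

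Protein degradation was less uniform. RPN4, the activator of proteasome genes, had 808, 1824 and 5829 CPM in Curcumin, against 157, 149 and 148 CPM in scFv-58F (log2 fold change 4.20, and 3.11 without Curcumin replicate 3). Regulators and ubiquitin shuttles were higher in Curcumin for 8 of 13 and lower for 1 (median 0.87). UFD1, a Cdc48 cofactor, had 249, 303 and 283 CPM in Curcumin, against 49.6, 45.9 and 44.7 CPM in scFv-58F, and CUZ1 rose 4.28-fold. Of the 33 proteasome subunits 12 were higher and 0 lower (median 0.48). In Curcumin replicate 3, where RPN4 was highest, the subunits were only 0.21 above the DMSO mean, against 1.20 and 0.93 in replicates 1 and 2, and scFv-58F stood at 0.27, 0.29 and 0.32. Without that replicate 21 subunits were higher. The count of regulators was 4 without scFv-58F replicate 2 or 3, 5 without scFv-58F replicate 1 or Curcumin replicate 2, and 12 without Curcumin replicate 3.

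The vacuolar proton ATPase, which acidifies the vacuole, was lower in Curcumin for 13 of 15 genes and higher for 1 (median -1.30). VMA11, a proteolipid subunit, had 43.1, 29.0 and 32.0 CPM in Curcumin, against 214, 219 and 236 CPM in scFv-58F and 171, 167 and 167 CPM in DMSO. VMA7 (-2.46, SE 0.29) and VMA9 (-2.46, SE 0.31) followed it, VMA9 with an overlap with YCL007C. The higher gene was STV1 (0.79), the subunit isoform of the Golgi and endosomes, while its vacuolar counterpart VPH1 was lower (-1.04).

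Histone genes were lower in Curcumin for 10 of 11 and higher for 0 (median -1.44), and the 3 values of the summed list were 4460, 4871 and 4594 CPM in Curcumin, against 10804, 11535 and 12643 CPM in scFv-58F. HTA2, of histone H2A, had 63.8, 54.3 and 83.3 CPM in Curcumin, against 623, 651 and 731 CPM in scFv-58F, and HTB2, of histone H2B, had 65.1, 81.0 and 73.4 CPM in Curcumin, against 481, 518 and 537 CPM in scFv-58F. CSE4, the centromeric H3 variant, fell by 2.40 (SE 0.28). The genes of histone H3, the protein whose acetylated form scFv-58F binds, were lower as well. HHT1 had 540, 602 and 831 CPM in Curcumin, against 1482, 1576 and 1730 CPM in scFv-58F and 1235, 1378 and 1462 CPM in DMSO (log2 fold change -1.31, SE 0.25, edgeR adjusted p = 0.00469). HHT2 had 1058, 1078 and 875 CPM in Curcumin, against 2478, 2634 and 2914 CPM in scFv-58F and 2177, 2282 and 2315 CPM in DMSO (-1.44, SE 0.24). In scFv-58F against DMSO 0 of the 11 histone genes were called, with a median of 0.24.

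The HATs themselves did not move as a list. Of 28 genes for HATs and SAGA subunits, 5 were higher and 7 lower in Curcumin than in scFv-58F, with a median of 0.05 that turned to between -0.09 and -0.02 under the length correction, the replicate block, limma voom or without any 1 Curcumin replicate. GCN5 had 58.4, 51.2 and 54.3 CPM in Curcumin, against 93.6, 96.6 and 98.2 CPM in scFv-58F and 92.2, 88.1 and 79.6 CPM in DMSO (log2 fold change -0.84, SE 0.14, edgeR adjusted p = 0.00226), a call that was lost with library-size scaling (-0.42). SPT20 (1.69) and TAF12 (1.35) were higher, and TAF9 (-2.09) and SGF11 (-1.73) lower. In scFv-58F against DMSO 0 of the 28 genes were called.

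Some genes known to be little expressed in growing cells were higher in Curcumin. Of the seripauperin and DAN/TIR cell wall genes, which are known from anaerobic growth, 21 of 29 tested were higher and 1 lower (median 3.06), but they passed the count filter mostly through the Curcumin samples, only 12 of them had at least 10 counts in every sample (4 higher, median 0.57), and the copies are so alike that reads were shared. PAU6 had 5.21, 10.8 and 20.5 CPM in Curcumin, against 0.701, 0.560 and 0.651 CPM in scFv-58F, which rest on 8, 8 and 7 counts, and PAU18 had the same counts as PAU6 in scFv-58F. PAU12, which overlaps YGR293C, had 4.87, 9.48 and 20.8 CPM in Curcumin, against 0.613, 0.700 and 0.651 CPM in scFv-58F. Without Curcumin replicate 3 the log2 fold changes were 3.62 for PAU6 and PAU18 (4.22 with it) and 3.40 for PAU12 (4.11 with it). Early and middle meiosis genes were higher for 26 of 54 and lower for 6 (median 0.84). SPO19, a late meiotic protein of the prospore membrane, showed the largest increase named, with 164, 247 and 55.5 CPM in Curcumin, against 0.263, 0.140 and 0.558 CPM in scFv-58F, which rest on 3, 2 and 6 counts (log2 fold change 8.92, SE 0.81, and 9.54 without scFv-58F replicate 3). PRM6, a pheromone-regulated potassium transporter gene that overlaps YML047W-A, had 9.67, 28.4 and 107 CPM in Curcumin, against 0.350, 0.210 and 0.0930 CPM in scFv-58F, which rest on 4, 3 and 1 counts (log2 fold change 7.70, and 6.35 without Curcumin replicate 3). Both SPO19 and PRM6 reached 10 counts only in the Curcumin samples and so passed the count filter through them alone. SPS1, a sporulation kinase gene chosen after its values were seen, had 39.2, 99.8 and 142 CPM in Curcumin, against 1.75, 1.54 and 0.837 CPM in scFv-58F.

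Besides the lysine genes, the largest decreases were DSE1, YBR126W-B and RIB4. DSE1, a daughter-cell gene, had 30.6, 15.9 and 14.7 CPM in Curcumin, against 243, 281 and 316 CPM in scFv-58F and 183, 164 and 154 CPM in DMSO, and was higher in scFv-58F than in DMSO by 0.74 on the log2 scale. The scFv-645 cultures, with 221, 234 and 225 CPM, also lay above DMSO in this gene. RIB4, of riboflavin synthesis, had 39.2, 27.1 and 37.7 CPM in Curcumin, against 356, 385 and 420 CPM in scFv-58F. YBR126W-B, which overlaps YBR126W-A, fell by 3.56 (SE 0.32). TUB1, the tubulin gene used by the study's qPCR, had 99.8, 115 and 445 CPM in Curcumin, against 247, 254 and 239 CPM in scFv-58F, so that Curcumin values lay on both sides (log2 fold change -0.19, SE 0.57, edgeR adjusted p = 0.787), and without Curcumin replicate 3 it was lower by 1.22.

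Some lists differed in counts close to the background of 29.5% higher and 26.5% lower genes. Translation factors had 11 of 36 higher and 8 lower (median 0.06), RNA polymerase III had 6 of 19 higher and 3 lower (median 0.11), ergosterol synthesis had 7 of 27 higher (4 without scFv-58F replicate 2 or 3, or with the length correction) and 4 lower (median -0.18), and purine and GTP synthesis had 6 of 19 higher and 4 lower (median 0.06). Others leaned to a side without reaching 60%. The phosphate regulon was higher for 11 of 19 (median 0.88), zinc homeostasis for 5 of 9 (median 1.09), DNA damage and ribonucleotide reductase genes for 12 of 21 (median 0.87) and histone deacetylases for 8 of 17 (median 0.50). The count of deacetylases was 4 without scFv-58F replicate 2 or 3, and 5 with a median of 0.20 after the length correction. Fatty acid and phospholipid synthesis was lower for 11 of 21 (median -0.65) and glycolysis and fermentation for 8 of 22 (median -0.66).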

How the data were processed

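RNA-seq of 15 yeast cultures was used, 3 each of DMSO, Curcumin, CPTH2, scFv-58F and scFv-645, grouped by their labels, and the 3 Curcumin samples were compared directly with the 3 scFv-58F samples. According to the methods of the study, cutadapt trimmed the reads, segemehl placed them on the sacCer3 build of the yeast genome, and bamutils of NGSutils 0.5.9 did the counting. The authors deposited counts, which are whole numbers of reads for each of 6692 genes without normalization, in which strand was ignored and multi-position reads were split among their positions. The authors also deposited CPM, relative to each sample's mapped reads, and RPKM, relative to gene length as well. Only the counts were analysed, and the CPM in the text were computed from them with TMM factors.

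The 6588 genes that reached 10 counts in 3 or more of all 15 samples were tested, in R 4.3.3 with edgeR 4.0.16 (quasi-likelihood test, TMM, Benjamini-Hochberg adjustment over all tested genes), on the samples of the 2 groups of each comparison. DEGs changed 1.5-fold or more at an adjusted p under 0.05. Total counts ranged from 9062694 to 15535836 in the 6 samples, and 3 counts were taken as the floor. Log2 CPM used a prior count of 2. The alternatives were DESeq2 1.42.0 and its size factors, library size only, limma 3.58.1 voom with quality weights, a model of all 5 groups, no filter or 10 counts in every sample, a block for the replicate number, and leaving out each sample in turn. The gene length correction, and the alternatives for the DMSO comparisons, were added after seeing the data. The test was run on simulated data in which both groups had the same spread. That run cannot show how the test behaves with the unequal spread of the Curcumin and scFv-58F replicates. Python 3.11.15 with pandas 2.3.3, numpy 2.4.6 and matplotlib 3.10.9 did the rest.

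Gene lists and named genes were chosen with earlier results of these data known. Named are, for each list with at least 5 tested members of which 60% were called in a single direction, the 3 called members with the largest change, with at least 10 CPM in the higher group and no overlap between groups; the 5 largest increases and decreases by the same conditions; the qPCR genes; and HHT1, HHT2 and GCN5. Other genes were chosen after their values were seen. PAU20 (106 counts in all) was not tested and the listed symbol AAD16 was not matched by symbol, so the 23 Yap1-type genes counted leave it out. Identifiers of 6008 genes matched RefSeq (assembly R64), and 6000 had the same coordinates. Sequence windows of 30 bases were read from the R64 genome within 500 bases upstream of 5977 protein-coding genes, both strands were searched, and the match nearest to the start was shown.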

Additional observations from a re-analysis of the deposited data

How the results depend on the processing

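The number of DEGs between Curcumin and scFv-58F (3694) was 3693 with DESeq2's size factors, 3902 with library size only, 3911 with DESeq2's Wald test, 4312 with limma voom, 4157 in the model of 5 groups, 3715 without a filter, 3528 with 10 counts in every sample, 3491 with the length correction and 2857 to 4114 with a sample left out. Library size only gave 1123 genes lower in Curcumin than in scFv-58F, 1052 lower in Curcumin than in DMSO and 3 lower starvation genes, and the length correction gave 2 lower starvation genes. With 10 counts in every sample, 4 of the 12 PAU and DAN/TIR genes left were higher. The model of 5 groups, in which the spread of Curcumin is shared with the other groups, gave 230 DEGs of scFv-58F versus DMSO (50 higher and 180 lower). Leaving out 1 sample gave 5 to 9 lower lysine genes, 4 to 12 higher proteasome regulators, 5 to 21 higher proteasome subunits and 3 to 5 lower starvation genes. TUB1 turned to 0.22 with library size only, to 0.18 without Curcumin replicate 1 and to 0.13 without Curcumin replicate 2, none of them past the threshold, and was at -1.07 with limma voom and -1.22 without Curcumin replicate 3, both past it. Where no construction of the alternative shows it, the cause was not tested.

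Same-numbered replicates of Curcumin and scFv-58F did not deviate together (correlations -0.037, 0.030 and -0.067), so the numbers were not taken as a pairing. With the replicate block there were 3545 DEGs, 1792 higher and 1753 lower.

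Limits are the few counts behind LSO1, SPO19 and PRM6 in scFv-58F, genes that passed the count filter only through Curcumin. Further limits are reads shared between copies or overlapping genes, the gradient with gene length, and the spread of the Curcumin replicates. The plasmid and the drug were not varied together, so no interaction can be seen.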
